A study of Bos taurus with 9 samples.

Results

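Of 17852 bovine genes counted in metaphase II oocytes, 9 are described here. They are VEGFD, PLAC1, GABRA4, SMIM11, SNX3, NUDCD2, DPP3, PDCD5 and FAM200B. They were selected on their read counts, for transcripts much lower in oocytes exposed to microplastics than in control oocytes and high again in oocytes given microplastics plus taurine. The same libraries chose them and are described here, so the values of both contrasts are a description of the choice, with no test of it. They are also not the whole of such a class, since 74 other tested genes had a fall and a return at least as large as the smallest of the 9.

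The 9 genes do not form a pathway. VEGFD is a secreted growth factor best known for lymphatic vessels, where it binds the receptor FLT4. PLAC1 is an X-linked protein with a zona pellucida-like domain that is needed for a normal placenta in the mouse. GABRA4 is a subunit of the GABA-A receptor, a chloride channel at which taurine is a known agonist in brain. SMIM11 is a small integral membrane protein. SNX3 is a sorting nexin that binds a phosphoinositide of early endosomes and works with retromer to return cargo such as the Wnt carrier WLS. NUDCD2 belongs to the NudC family, and in human cells it stabilises LIS1, a regulator of the motor dynein, together with the chaperone Hsp90. DPP3 is a cytosolic zinc peptidase that removes dipeptides, and in human cells it also binds KEAP1, the inhibitor of the antioxidant factor NRF2. PDCD5 was named for its increase in human cells undergoing apoptosis, and it binds the chaperonin CCT. FAM200B descends from a transposase of the hAT type. A metaphase II oocyte is close to transcriptional silence and lives on stored maternal mRNA, so a transcript level there reflects storage and decay more than synthesis.

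The study sequenced total RNA of bovine oocytes at metaphase II, the stage at which the egg waits for fertilization. Oocytes treated with microplastics plus taurine, with microplastics alone, and untreated controls gave 3 libraries each. Microplastics are small plastic particles, and taurine is a sulfur-containing amino acid found free in oviduct and follicle fluids. The labels give no particle type, dose, exposure time or animal age, and leave unsaid whether the 3 libraries of a treatment are separate animals or cultures. Any p-value here therefore reflects only how these libraries vary, and part of that may be technical.

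The 9 libraries hold between 21.17 and 22.74 M estimated reads, and 3 reads in a library correspond to 0.106 to 0.164 CPM (reads scaled to the library total and its TMM factor). All 15 oocyte markers looked for were in the table, with summed levels of 64950 to 72360 TPM (reads scaled to transcript length and library total) with taurine, 48610 to 56710 TPM with microplastics and 73290 to 79020 TPM in control. The 17 cumulus and granulosa markers summed to 207 to 243 TPM with taurine, 224 to 302 TPM with microplastics and 174 to 270.3 TPM in control, and of the 13 tested, 5 were called lower and 0 higher with microplastics than in control, and 4 higher and 0 lower with taurine than with microplastics. For the 15 oocyte markers these counts were 7 lower and 2 higher, and 5 higher and 2 lower. Of all tested genes, 14.7% were called lower and 9.68% higher with microplastics, and 10.1% higher and 4.13% lower with taurine. Among the cumulus and granulosa markers, STAR ran between 80.5 and 228 TPM over the 9 libraries. TNFAIP6 was at 88.8 TPM in control 2 and 46.0 TPM in taurine 3, and at most 2.46 TPM in any other library. Endothelial markers summed to 2.89 to 6.59 TPM with taurine, 7.27 to 11.95 TPM with microplastics and 2.6 to 6.3 TPM in control, and erythroid markers to 46.9 to 71.5 TPM with taurine, 44.6 to 70.4 TPM with microplastics and 95.5 to 167 TPM in control. The part of other cells in the results was not tested. Of the 6 taurine and control libraries, 5 correlated best with a library of the other group (r = 0.976 to 0.977), so these groups were not set apart by that measure. Values are also given without control 3 and taurine 3. Both are among those 5, were not closest to each other, and were chosen with earlier results known. In bulk RNA, fewer cells of a type and less RNA per cell cannot be told apart.

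Each of the 9 genes had a single transcript row in the table, as did 15780 of the 17852 genes (88.4%), so no isoform change could be read from them. By the RefSeq table of ARS-UCD2.0, PLAC1 (gene ID 767997) and VEGFD (286799) lie on chromosome X. FAM200B (100849050) and GABRA4 (282238) lie on chromosome 6, SMIM11 (615202) on 1, NUDCD2 (532693) on 7, SNX3 (528265) on 9, PDCD5 (509123) on 18 and DPP3 (510200) on 29. All 9 are annotated as protein-coding. The transcript counted was listed for its gene in the RefSeq table for 8 of the 9, and was not for FAM200B. How much of the FAM200B mRNA its row covers was not tested.

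The secreted factors come first. VEGFD had 4.40, 4.70 and 5.64 TPM in the 3 libraries with taurine, 0.940, 0.170 and 0.480 TPM with microplastics, and 3.70, 4.47 and 5.19 TPM in control. All 3 microplastics libraries lay below every other library, while the taurine and control libraries overlapped. These microplastics values rest on 30, 6 and 16 reads, against 138 to 177 reads in control libraries. VEGFD kept 7.77% of its control CPM with microplastics (log2 -3.68 ± 0.44, SE) and stood at 106% with taurine. Without microplastics 1, where it was highest, its log2 difference was -4.35.

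PLAC1 had 14.3, 19.7 and 15.2 TPM with taurine, 2.83, 1.47 and 1.65 TPM with microplastics, and 28.2, 24.0 and 18.7 TPM in control. Again the microplastics libraries stood apart and the highest taurine library overlapped the lowest control library. Reads per microplastics library were 30, 17 and 18. PLAC1 kept 5.38% of its control CPM with microplastics (log2 -4.21 ± 0.35, SE) and reached 64.7% with taurine, a partial return in the mean.

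The membrane proteins differed in how steady they were in control oocytes. GABRA4 had 6.21, 7.82 and 9.11 TPM with taurine, 2.03, 0.430 and 0.190 TPM with microplastics, and 28.5, 4.43 and 7.71 TPM in control. Control 1 alone was far above the other control libraries, which overlapped those with taurine, and all 3 microplastics libraries were lower than any other. GABRA4 kept 4.09% of its control CPM with microplastics, the lowest share of the 9 (log2 -4.62 ± 0.89, SE), on 61, 14 and 6 reads. This size rests on single libraries, since it was -3.30 without control 1 and -6.06 without microplastics 1. The log2 difference of taurine from microplastics was 3.68 ± 0.86. It was no longer called when taurine 3 (3.48), microplastics 2 (3.34) or microplastics 3 (3.17) was left out, nor when control 3 and taurine 3 were (3.47), and it was 5.12 without microplastics 1.

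SMIM11, by contrast, was among the steadiest in control. It had 424, 585 and 358 TPM with taurine, 75.9, 33.8 and 38.7 TPM with microplastics, and 442, 430.1 and 449 TPM in control. The 3 taurine libraries lay on both sides of the narrow control range. SMIM11 kept 7.29% of its control CPM with microplastics (log2 -3.78 ± 0.31, SE), and still exceeded 80.9% of tested genes in mean TPM there.

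Among the cytosolic and endosomal proteins, NUDCD2 changed most. It had 175, 199 and 180.2 TPM with taurine, 22.8, 24.7 and 15.7 TPM with microplastics, and 277, 201 and 230.2 TPM in control. It was the only one of the 9 whose taurine libraries all lay below all control libraries, by a narrow margin, against 4.57% of tested genes whose groups were separated in that direction. NUDCD2 kept 5.80% of its control CPM with microplastics (log2 -4.11 ± 0.25, SE) and reached 74.0% with taurine.

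DPP3, the peptidase, had 38.7, 66.3 and 61.0 TPM with taurine, 9.86, 8.22 and 7.66 TPM with microplastics, and 44.4, 66.2 and 51.7 TPM in control. Its microplastics libraries were close together, with a mean of 13.9 ± 1.95 CPM (SD, n = 3), whereas the taurine and control libraries spread widely and overlapped. DPP3 kept 10.4% of its control CPM with microplastics (log2 -3.27 ± 0.27, SE).

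SNX3 had 192, 216 and 153 TPM with taurine, 61.4, 35.6 and 42.5 TPM with microplastics, and 168, 193 and 210.5 TPM in control. PDCD5 had 889, 815 and 598 TPM with taurine, 257, 171 and 236 TPM with microplastics, and 815, 672 and 827 TPM in control. For both genes the microplastics libraries lay below all others and the taurine libraries overlapped control. They kept a larger share of control CPM than the other 7, at 16.0% for SNX3 (log2 -2.65 ± 0.21, SE) and 18.6% for PDCD5 (log2 -2.42 ± 0.20, SE). With microplastics PDCD5 was still above 94.5% of tested genes in mean TPM and SNX3 above 80.1%, so neither was nearly lost. These 2 sit at the shallow end of the choice, at ranks 91 and 124 of 13206 by size of fall.

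FAM200B, the transposase descendant, had 16.6, 17.1 and 14.4 TPM with taurine, 3.98, 1.90 and 1.78 TPM with microplastics, and 20.0, 26.2 and 16.9 TPM in control. The taurine libraries were tightly grouped and touched the lower edge of control. FAM200B kept 7.82% of its control CPM with microplastics (log2 -3.67 ± 0.36, SE), on 50, 26 and 23 reads, and reached 71.3% with taurine.

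**Figure D1:**
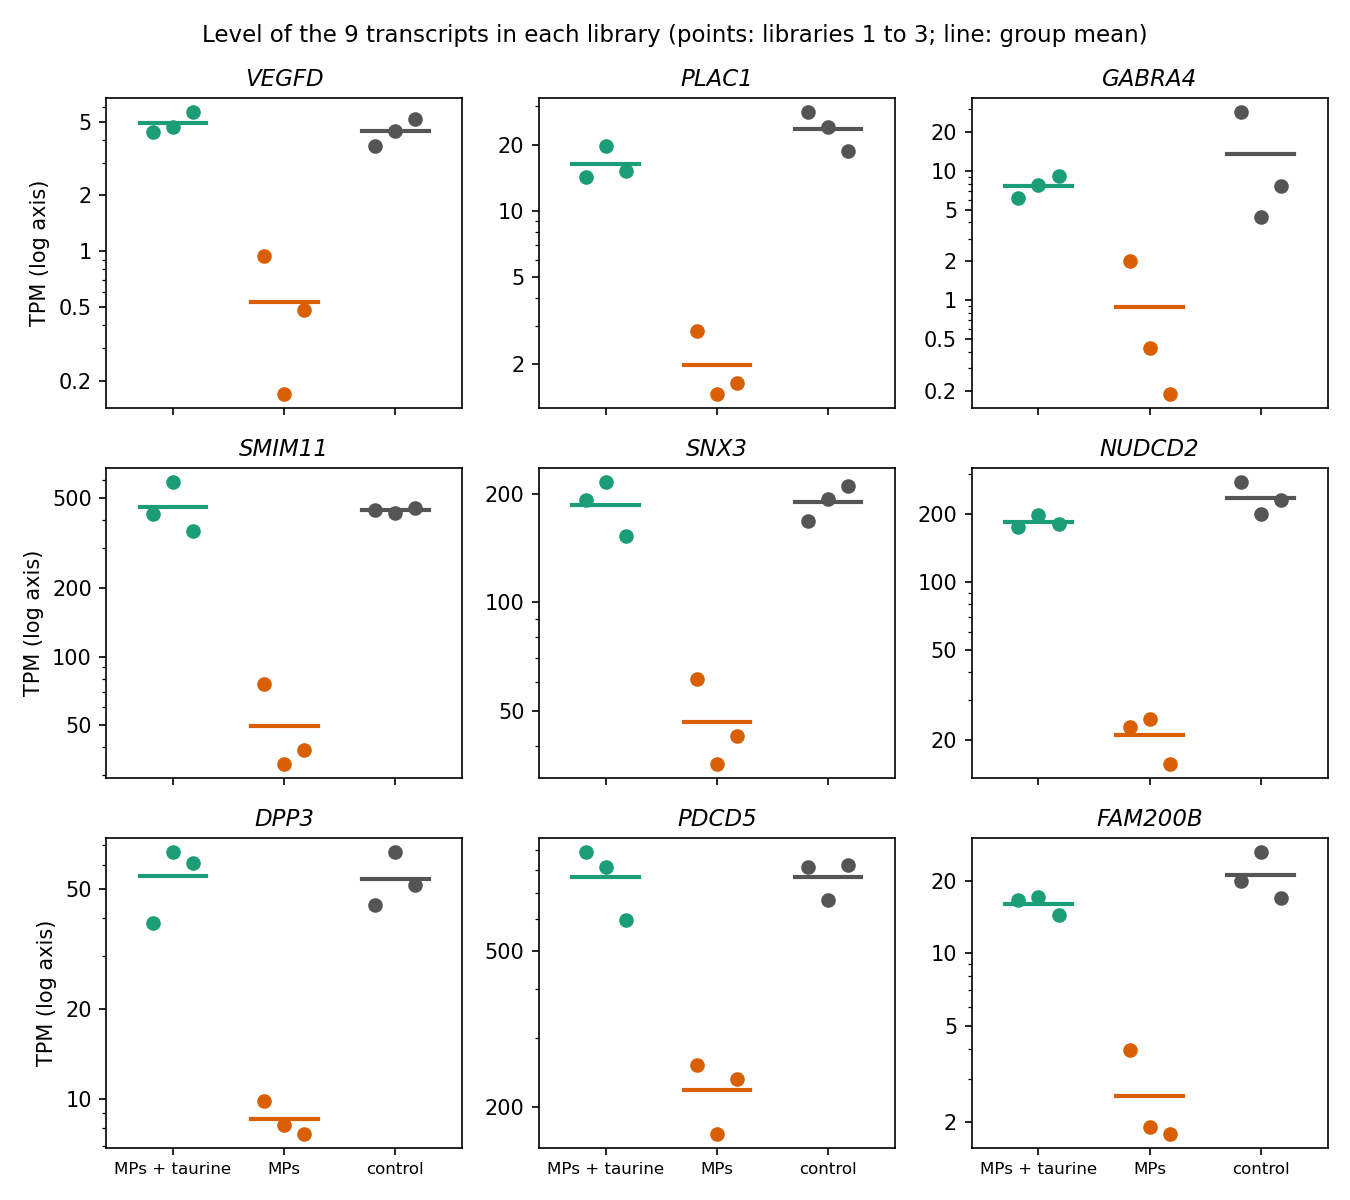
Level of each of the 9 transcripts in TPM (log axis), with 1 point for each library and a line at the group mean, for microplastics plus taurine, microplastics and control. In every panel the 3 microplastics points lie below the 6 others, and only for NUDCD2 do all taurine points lie below all control points.

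By edgeR's quasi-likelihood test over 13206 genes, all 9 were called lower with microplastics than in control, where 14.7% of tested genes were, and all 9 were called higher with taurine than with microplastics, where 10.1% of tested genes were. The microplastics libraries lay below all control libraries for 9 of 9, where 22.5% of tested genes did, and the taurine libraries above all microplastics libraries for 9 of 9, where 18.7% did. Since the choice used these contrasts, nothing follows from these counts. The median log2 difference of the 9 was -3.68 for microplastics against control and 3.58 for taurine against microplastics, where the medians of all tested genes were 0.04 and -0.02. Both contrasts share the microplastics libraries. The differences of taurine from microplastics were 3.77 for VEGFD, 3.76 for SMIM11, 3.67 for NUDCD2, 3.58 for PLAC1, 3.23 for DPP3, 3.19 for FAM200B, 2.54 for SNX3 and 2.34 for PDCD5. Without control 3 and taurine 3, all 9 stayed lower with microplastics, between -4.93 for GABRA4 and -2.46 for PDCD5.

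The split over all genes depends on scaling, which moves every gene alike. With TMM scaling 1278 genes were higher and 1935 lower with microplastics than in control, while library size alone as the scale gave 4004 higher and 876 lower and a median of all genes of 0.52. The 9 stayed low under that scaling, between -4.08 and -1.94 on the log2 scale, and between 1.92 and 3.33 for taurine against microplastics.

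The taurine libraries were also compared with control, and the choice for a return bears on this contrast too. None of the 9 was called by edgeR's test, where 0.00757% of tested genes (1 gene) were, and none had an unadjusted p under 0.05, where 5.70% had. The log2 difference of taurine from control was -0.94 for GABRA4 (95% interval -2.58 to 0.70, adjusted p = 0.861), -0.63 for PLAC1 (-1.28 to 0.03, adjusted p = 0.855), -0.49 for FAM200B (-1.17 to 0.20, adjusted p = 0.855) and -0.43 for NUDCD2 (-0.92 to 0.05, adjusted p = 0.855). The lower bounds of these 4 intervals are 0.167, 0.412, 0.443 and 0.530 times control and the upper bounds lie above 1, so an incomplete return could not be told from a full one. For GABRA4 the sign turned to 0.37 without control 1. The other 5 were nearer 0, at -0.10 for SNX3 (-0.53 to 0.32, adjusted p = 0.942), -0.08 for PDCD5 (-0.49 to 0.32, adjusted p = 0.954), -0.04 for DPP3 (-0.57 to 0.49, adjusted p = 0.985), -0.02 for SMIM11 (-0.62 to 0.57, adjusted p = 0.993) and 0.09 for VEGFD (-0.74 to 0.91, adjusted p = 0.978). Missing the threshold does not show that taurine and control oocytes had the same level. Control 3 and taurine 3 each correlated best with a library of the other group. Without them, 783 genes were called in this contrast, and none of the 9 was among them.

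**Figure D2:**
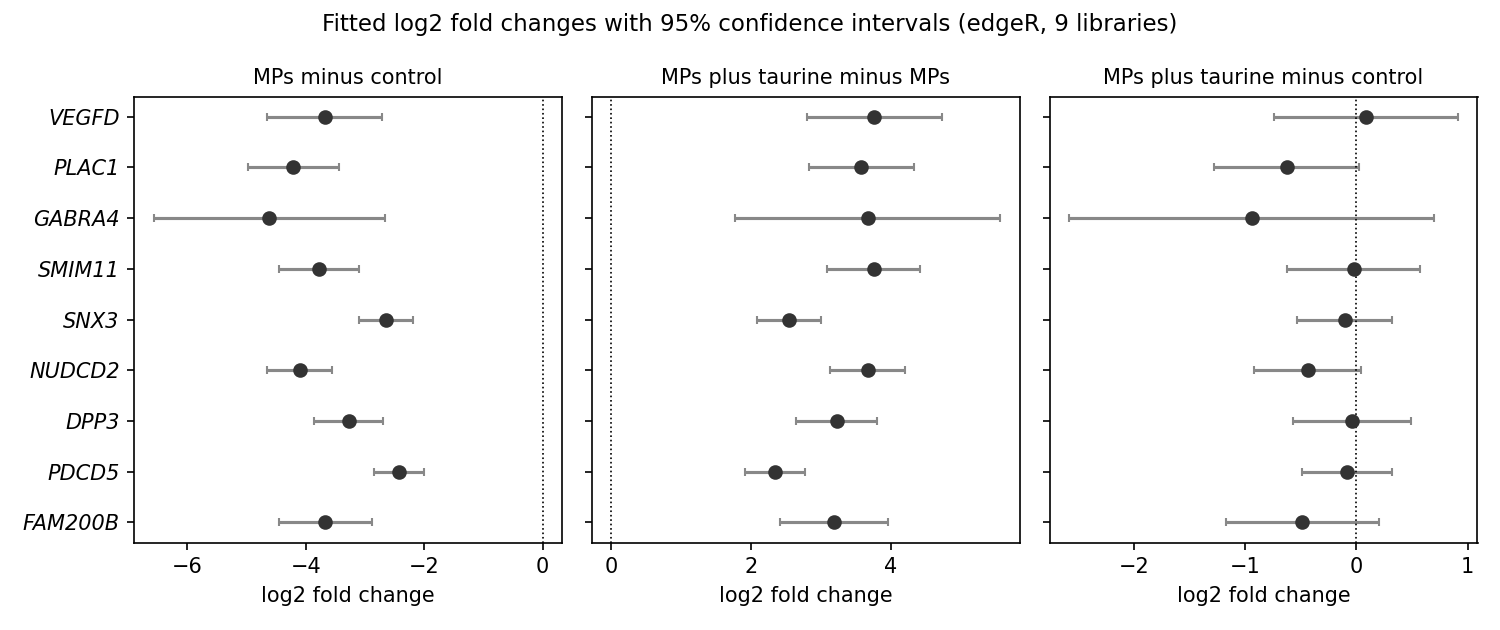
Log2 differences of the 9 transcripts with 95% intervals, for microplastics minus control, taurine minus microplastics and taurine minus control. The first set lies between -4.62 and -2.42, the second between 2.34 and 3.77, and every interval of the third includes 0.

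Within groups the 9 transcripts moved together in part. In TPM, microplastics 1 was the highest of its group for 8 of the 9, the exception being NUDCD2, and it lay above the group mean of log2 CPM for all 9, by a median of 0.51. On that log2 CPM scale control 3 lay below its group mean for 8 of the 9 (median -0.22), as did taurine 1 (median -0.14). In TPM, by contrast, control 3 was the highest of its group for 4 of the 9, and taurine 2 of its group for 6. The median coefficient of variation was 16.8% with taurine, 36.7% with microplastics and 23.5% in control. With microplastics, 6 of the 27 values rest on fewer than 20 reads.

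**Figure D3:**
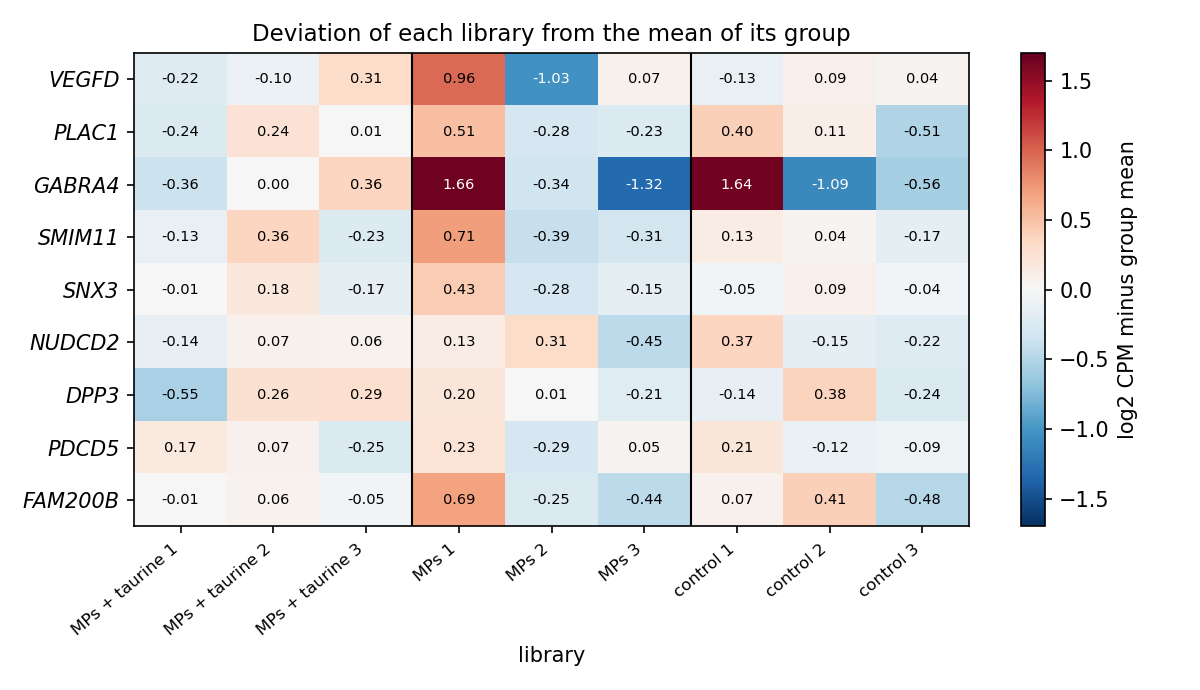
Deviation of each library from its group mean in log2 CPM, for the 9 transcripts (rows) and the 9 libraries (columns, taurine, microplastics, control). The column of microplastics 1 is positive for all 9, with a median of 0.51, and the column of control 3 is negative for 8 of the 9, with a median of -0.22.

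As a description across the 9 libraries, Pearson r between pairs of the 9 ran between 0.891 (DPP3 and GABRA4) and 0.998 (SMIM11 and SNX3). The choice sets most of this, because every library shares its group's step. For deviations from the group means, r over the same libraries ran between -0.349 (DPP3 and PDCD5) and 0.95 (SMIM11 and SNX3), with a median of 0.522, and 33 of the 36 pairs were above 0. These points share their library and its depth. SMIM11 and SNX3, a membrane protein and a sorting nexin on different chromosomes, were thus the most alike pair on both measures.

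Many other genes had the same profile. The 8 genes outside the 9 with the highest Pearson r to the mean profile of the 9, over the 9 libraries, were CALM (0.9975), CALM2 (0.9965), DUT (0.9951), TRAPPC6B (0.9935), NFU1 (0.9931), STMP1 (0.9928), TMEM70 (0.9922) and COMMD6 (0.9922), and 326 such genes reached 0.95. CALM and CALM2 encode calmodulin, the calcium sensor. Whether reads were shared between them was not tested, so their counts may be uncertain. CALM2 averaged 4017 ± 188 CPM with taurine, 731 ± 157 CPM with microplastics and 4513 ± 863 CPM in control (SD, n = 3 each). TMEM70, an assembly factor of mitochondrial ATP synthase, averaged 16.8 ± 2.61 CPM with taurine, 2.26 ± 0.755 CPM with microplastics and 23.3 ± 7.99 CPM in control. DUT, which removes dUTP, differed less, by -1.11 ± 0.15 on the log2 scale with microplastics, so likeness in shape did not need a large fall.

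Transcript length, which the choice did not use directly, was short for 6 of the 9, middling for GABRA4 and VEGFD and above the median of tested genes for DPP3. The length implied by counts and FPKM was 307 nt for SMIM11, 345 nt for PDCD5, 588 nt for NUDCD2, 598 nt for PLAC1, 709 nt for FAM200B, 1079 nt for SNX3, 1692 nt for GABRA4, 1809 nt for VEGFD and 2407 nt for DPP3. Their median was 709 nt, against 2012 nt for tested genes, and 6 of the 9 were in the shortest of 5 length classes of like size, up to 1102 nt. In that class 656 genes were called lower and 87 higher with microplastics than in control (median log2 -0.36), whereas in the longest class 170 were lower and 420 higher (median 0.27). With a smooth trend on length removed in each library, the values of the 9 were between -4.54 (GABRA4) and -1.79 (PDCD5) for microplastics against control, and between 1.94 (PDCD5) and 3.73 (VEGFD) for taurine against microplastics. SMIM11, the shortest, was then at -3.13.

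**Figure D4:**
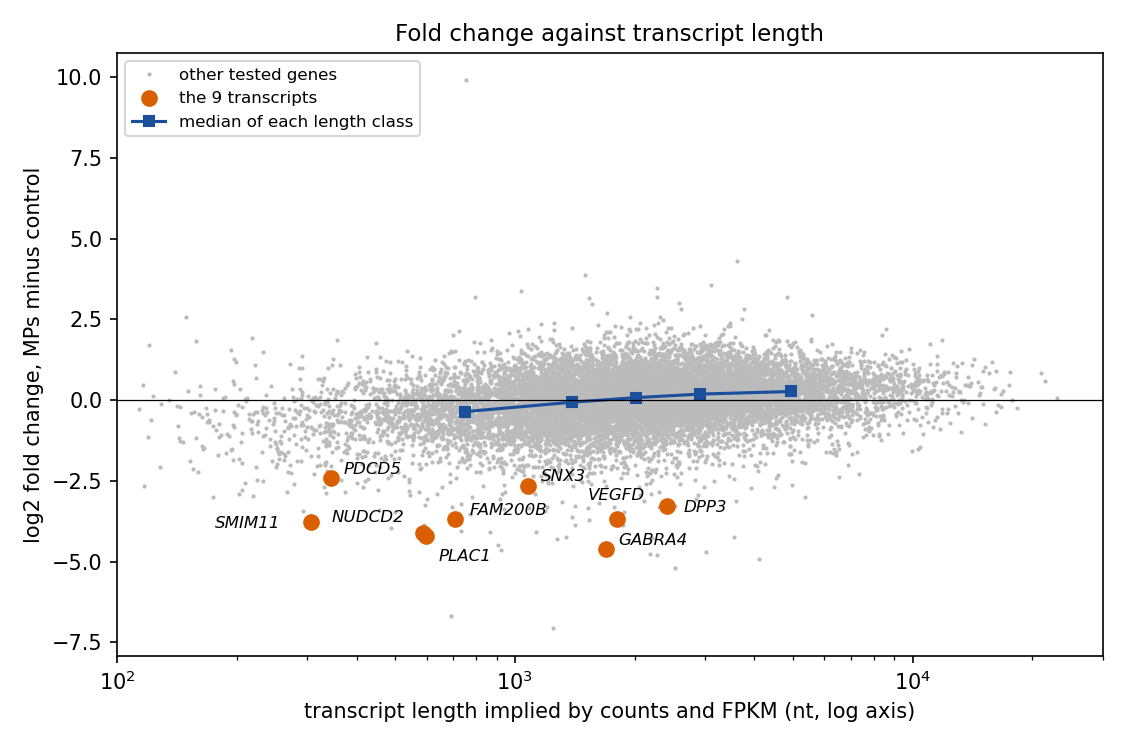
Log2 difference of microplastics minus control against implied transcript length (log axis, nt) for the tested genes with a length, with the 9 transcripts named and a line through the medians of the 5 length classes. Its axis leaves out 13 genes outside 100 to 30000 nt. The shortest class has a median of -0.36 and the longest 0.27, and the 9, chosen for their fall, are at -2.42 or lower.

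Genes related to the 9 by family or pathway are described by 12 lists. Of the partners of VEGFD and PLAC1, VEGFC, the closest relative of VEGFD, had a like profile, with 8.55 ± 2.44 CPM with taurine, 1.88 ± 0.384 CPM with microplastics and 9.07 ± 1.30 CPM in control (log2 -2.26 and 2.18, adjusted p = 0.000394 and 0.000729 by edgeR). Their shared receptor FLT4 was higher with microplastics (5.09 ± 0.977 CPM, against 2.13 ± 0.726 CPM in control, log2 1.25), a call lost without any of microplastics 1 (1.10), microplastics 2 (1.31), microplastics 3 (1.37), control 1 (1.16) or control 2 (1.07). The FLT4 call was also lost with the length trend removed (1.07). Of the 13 tested genes of VEGF signalling, VEGFC was the 1 lower and FLT4 the 1 higher with microplastics. The median of the 13 was 0.09, or 0.57 with 2 higher and 1 lower with scaling by library size only. VEGFC was the 1 higher with taurine. Without control 3, alone or with taurine 3, 4 of the 13 were called, and 1 without any other 1 control or microplastics library.

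Oocyte-secreted and placenta-specific proteins were the list with the lowest median. Of 8 tested, 4 were lower and 0 higher with microplastics (median -1.13, or -0.65 with 3 lower and 1 higher by library size only), and 2 were called without microplastics 1 or microplastics 3. OOSP2, an oocyte-secreted protein, had a log2 difference of -1.15 and ZP3, a zona pellucida glycoprotein, of -1.26, with 522 ± 62.9 CPM with taurine, 344 ± 54.3 CPM with microplastics and 824 ± 348 CPM in control for ZP3. GDF9, a growth factor the oocyte sends to its cumulus cells, was at -1.32, and its call ended without microplastics 1 (-1.27), microplastics 2 (-1.34), microplastics 3 (-1.31) or control 1 (-0.51). By library size only GDF9 was not called either (-0.81). With taurine 2 of the 8 were higher than with microplastics (median 0.32, or -0.13 with 0 higher and 1 lower by library size only), with 0 called without microplastics 2 or microplastics 3 and 1 without microplastics 1 or any 1 taurine library. One of these was OOSP2 (0.73), a call lost without taurine 1 (0.57), taurine 2 (0.77), microplastics 2 (0.67) or microplastics 3 (0.62). That call was also lost by library size only (0.31) and with the length trend removed (0.47).

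Other GABA and glycine receptor subunits were mostly not called. Of 11 tested, only GABRG1 was lower with microplastics, with 13.3 ± 4.77 CPM with taurine, 8.51 ± 0.757 CPM with microplastics and 18.8 ± 1.74 CPM in control (log2 -1.14, or -0.67 and not called by library size only), and 0 were called with taurine against microplastics. The median of the 11 was -0.11, or 0.36 with 1 higher and 0 lower by library size only, and 3 were called without control 3 and taurine 3 and 2 without taurine 3 or microplastics 3. Among 13 genes that make, break down or carry GABA and its receptors, 4 were lower and 0 higher (median -0.12, or 0.33 with 1 lower and 3 higher by library size only), and 1 was called without microplastics 3 and 2 without taurine 2, microplastics 1, microplastics 2, control 1 or control 2. GABARAPL2, a relative of the receptor-associated protein GABARAP that also acts in autophagy, differed by -0.85 with microplastics and by 0.83 with taurine against microplastics. GABARAP itself was at -0.86, and its call ended without microplastics 2 (-0.88), microplastics 3 (-0.68) or control 2 (-0.81). That call was also lost by library size only (-0.38) and with the length trend removed (-0.45). Of 10 tested relatives of SMIM11 by name, 4 were lower and 1 higher (median -0.37, or 0.12 with 3 lower and 3 higher by library size only; 3 called without control 2 or microplastics 2), among them SMIM7 (-1.32) and SMIM8 (-1.20), both higher again with taurine (1.08 and 1.11).

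Sorting nexins and retromer, the family and partners of SNX3, went both ways. Of 33 tested, 6 were higher and 4 lower with microplastics (median 0.10, or 0.57 with 13 higher and 1 lower by library size only), and 16 were called without control 3 and taurine 3, against 6 without control 1 or without microplastics 1. SNX10, which acts in endosome and lysosome function, had 44.9 ± 9.53 CPM with taurine, 18.5 ± 1.95 CPM with microplastics and 56.9 ± 3.18 CPM in control (log2 -1.62 and 1.28). SNX11 ran the other way, with 40.2 ± 10.3 CPM with taurine, 85.4 ± 6.66 CPM with microplastics and 28.6 ± 5.80 CPM in control (log2 1.58 and -1.09).

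Around NUDCD2, 24 NudC, LIS1, dynein and dynactin genes were tested, of which 6 were lower and 4 higher with microplastics (median -0.06, or 0.42 with 3 lower and 9 higher by library size only), and 5 were called without control 2 and 6 without control 1 or microplastics 3. DCTN6, a dynactin subunit, had 102 ± 30.0 CPM with taurine, 24.9 ± 1.09 CPM with microplastics and 108 ± 58.9 CPM in control (log2 -2.12 and 2.04). DYNC1I1, a dynein intermediate chain, had 214 ± 21.9 CPM with taurine, 81.8 ± 23.8 CPM with microplastics and 219 ± 10.8 CPM in control (log2 -1.42 and 1.38). DYNC1LI2, another dynein gene, ran the other way. It had 25.1 ± 8.94 CPM with taurine, 44.3 ± 13.0 CPM with microplastics and 16.6 ± 7.49 CPM in control (log2 1.41 and -0.82, the second not called). Its call with microplastics was lost without microplastics 3 (1.18), control 1 (1.165) or control 2 (1.32). PAFAH1B1, which encodes the NUDCD2 client LIS1, was not called, with 22.97 CPM with taurine, 27.29 CPM with microplastics and 23.51 CPM in control.

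Genes linked to DPP3 were called in both directions. Of 20 genes of the KEAP1-NRF2 pathway 4 were lower and 2 higher with microplastics (median 0.28, or 0.75 with 2 lower and 11 higher by library size only). Without control 3 and taurine 3, 11 of them were called, against 4 without control 1, control 2, taurine 2, microplastics 2 or microplastics 3. The largest difference was that of MAFF, a small partner of NRF2, with 7.60 ± 2.87 CPM with taurine, 3.39 ± 0.269 CPM with microplastics and 16.2 ± 5.89 CPM in control (log2 -2.25 and 1.16). Its higher level with taurine was no longer called without taurine 1 (1.13), taurine 3 (0.89), any 1 microplastics library (1.08 to 1.18) or control 2 (1.16). That call was also lost by library size only (0.71) and with the length trend removed (1.14). NQO1, a quinone reductase and NRF2 target, had 84.6 ± 11.1 CPM with taurine, 45.4 ± 8.94 CPM with microplastics and 103 ± 22.7 CPM in control (log2 -1.19), whereas TXNRD1, thioredoxin reductase and also a target, had 14.8 ± 4.78 CPM with taurine, 25.6 ± 3.01 CPM with microplastics and 10.4 ± 1.05 CPM in control (log2 1.30). Of 20 other dipeptidyl and amino peptidases 2 were lower and 2 higher (median 0.21, or 0.68 with 0 lower and 6 higher by library size only), and 2 were called without control 2 or any 1 microplastics library. DPP10, a relative of the dipeptidyl peptidases without their activity, had 6.76 ± 0.781 CPM with taurine, 3.63 ± 0.379 CPM with microplastics and 8.36 ± 1.79 CPM in control (log2 -1.20 and 0.90). By library size only these were -0.72 and 0.47, neither called, and the second was not called without taurine 1 (0.85), taurine 2 (0.85) or any 1 microplastics library (0.80 to 0.93). DPP8 was one of those lower (-0.66), a call lost without microplastics 2 (-0.58) and by library size only (-0.18). TPP2 was one of those higher, with 36.5 ± 3.46 CPM with taurine, 53.9 ± 7.72 CPM with microplastics and 34.6 ± 4.13 CPM in control. Its log2 differences were 0.64 and -0.56, the second not called. The first call was lost without microplastics 1 (0.59), microplastics 3 (0.60), control 1 (0.58) or control 2 (0.60), and with the length trend removed (0.50).

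Of 21 chaperonin and prefoldin genes around PDCD5, 4 were lower and 3 higher with microplastics (median -0.11, or 0.38 with 1 lower and 5 higher by library size only), and 4 were called without control 1, control 2, microplastics 2 or microplastics 3. PFDN4, a prefoldin subunit, had 285 ± 50.6 CPM with taurine, 70.8 ± 19.5 CPM with microplastics and 354 ± 48.4 CPM in control (log2 -2.32 and 2.01). CCT3, a chaperonin subunit, was higher with microplastics by 1.08, a call lost without microplastics 3 (0.98). Of 8 other genes that carry the PDCD name, 4 were lower and 1 higher (median -0.39, or 0.10 with 3 lower and 3 higher by library size only), and 4 were higher and 1 lower with taurine against microplastics. Leaving out any 1 microplastics library, control 1 or control 2 left 3 calls for microplastics against control, and for taurine against microplastics there were 2 calls without microplastics 1 and 3 without taurine 2, taurine 3, microplastics 2 or microplastics 3. PDCD2L had 117 ± 2.97 CPM with taurine, 41.2 ± 6.24 CPM with microplastics and 94.8 ± 12.6 CPM in control (log2 -1.20 and 1.51). Of 9 hAT-derived genes related to FAM200B, 1 was lower and 0 higher with microplastics (median 0.13, or 0.63 with 0 lower and 4 higher by library size only). It was ZMYM1, at -0.74, a call lost without microplastics 1 (-0.63), microplastics 2 (-0.81), microplastics 3 (-0.75), control 1 (-0.59), control 2 (-0.77) or taurine 2 (-0.75).

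**Figure D5:**
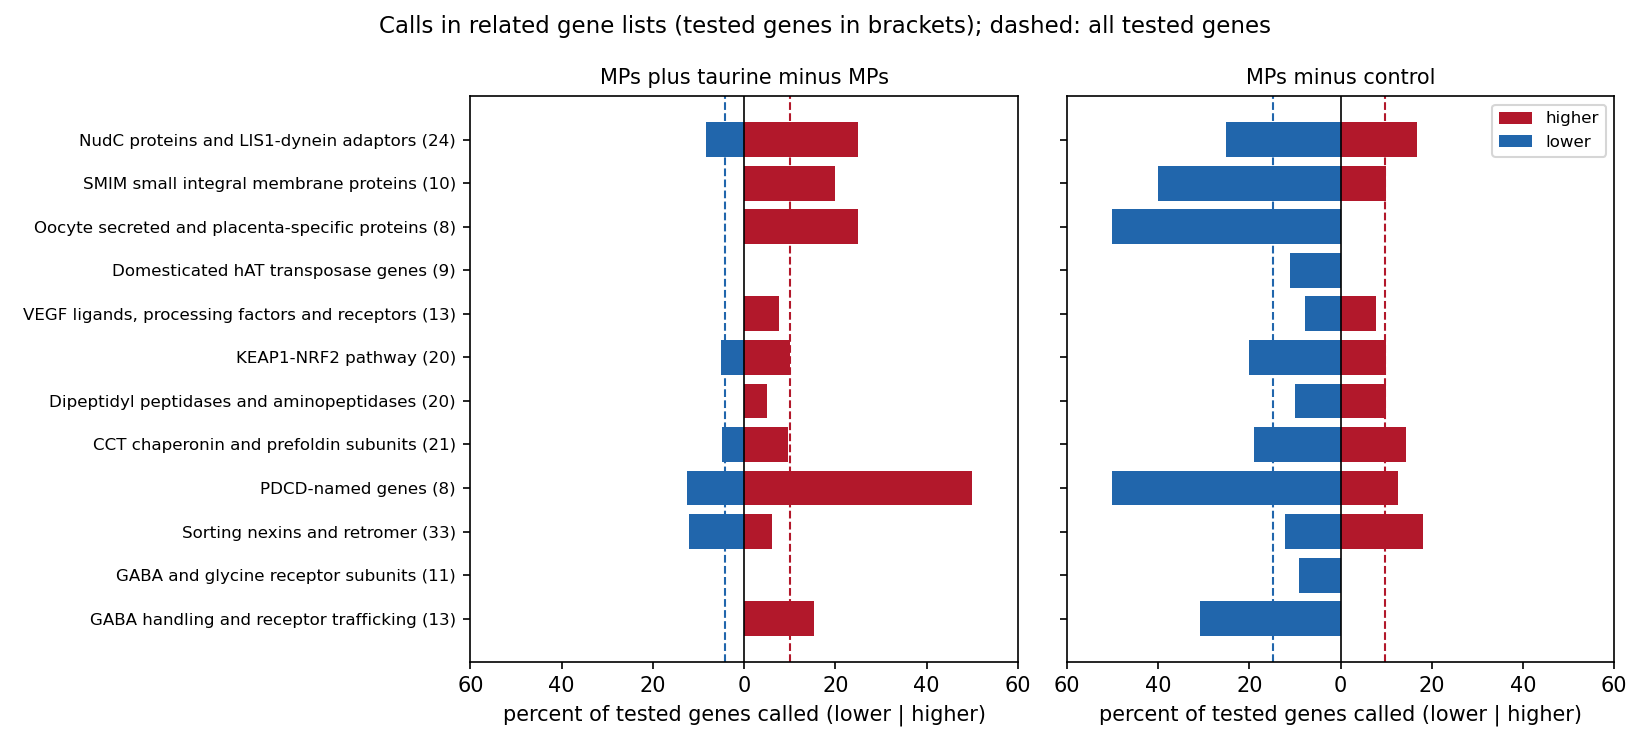
Share of tested genes called lower (left of 0) and higher (right of 0) in each of the 12 lists related to the 9 transcripts, for taurine minus microplastics and microplastics minus control, with dashed lines at the shares of all tested genes (4.13% lower and 10.1% higher, 14.7% lower and 9.68% higher). The longest bars for genes lower with microplastics are those of the oocyte-secreted and placenta-specific proteins and of the PDCD-named genes, with 4 of 8 tested genes each.

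Neighbouring genes were looked at to see whether the changes spread along the chromosome. By the order in the RefSeq table, the 9 have 18 nearest neighbours, none overlapping one of the 9, and 14 were tested. Of these, 2 were called lower with microplastics (14.3%, beside 14.7% of all tested genes), HPRT1 beside PLAC1 (-0.59) and PIGA beside VEGFD (-1.09), and 0 were higher. Scaled by library size only, neither was called (-0.10 and -0.60). With the length trend removed, HPRT1 was not called (-0.37). The call of HPRT1 was lost without any 1 of the 3 microplastics libraries (-0.58 to -0.57), control 1 (-0.59) or control 2 (-0.49), and that of PIGA without microplastics 1 (-0.85), microplastics 3 (-1.11), control 1 (-1.06) or control 2 (-1.03). HMMR, beside NUDCD2, had 141 CPM with taurine, 110.5 CPM with microplastics and 146 CPM in control (log2 -0.40, adjusted p = 0.113). The median of the 14 neighbours was -0.31, where that of all tested genes was 0.04. For taurine against microplastics, 1 of the 14 was called higher (7.14%, beside 10.1% of all tested genes), HPRT1 (0.63), and 0 were lower. That call was lost by library size only (0.19) and with the length trend removed (0.48). It was also lost without taurine 2 (0.58), taurine 3 (0.58) or any 1 microplastics library (0.61 to 0.62).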

How the data were processed

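The 9 genes, the related gene lists and the markers were chosen with earlier results of these data known. Per the file headers, the deposited table holds estimated counts, FPKM and TPM for 22590 transcript rows with gene IDs. The estimated counts were deposited without normalization, and the FPKM and TPM values were made by the authors. Aligner, counting program, build and annotation: not given in the sources used here. How strand, shared reads or isoform assignment shaped the values is therefore unknown. A further 21 deposited value columns were not used. The labels do not pair libraries across groups.

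Estimated counts were summed per gene (17852 genes) and rounded to whole numbers for testing, and deposited TPM was summed per gene for levels. Symbols came from the RefSeq gene table of ARS-UCD2.0 by gene ID (16995 genes, 95.2%). It was used only for names, chromosomes, gene type, neighbours and whether the transcripts of the 9 were listed. The 9 symbols all matched. Transcript length is the one that counts and FPKM imply together, found for 98.6% of tested genes.

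The main test was edgeR's quasi-likelihood test (version 4.0.16, R 4.3.3) on all 9 libraries, with TMM scaling, filterByExpr at a minimum count of 10 and a minimum total of 15, and Benjamini-Hochberg adjustment over the 13206 genes left. All 9 members passed the filter, which a gene can do through the groups where it is high. A call is an adjusted p under 0.05. CPM are scaled by TMM, errors of means are SD over 3 libraries, errors of log2 differences are SE, and intervals are 95%. Floors of 3 reads cover counting error only.

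Named besides the 9 are up to 3 called genes of each list with the largest change with microplastics and the 8 genes most alike in profile. PAFAH1B1, HMMR, HPRT1 and PIGA were named after their values were seen. Alternatives were limma-voom (limma 3.58.1), the DESeq2 1.42.0 Wald test and size factors, library size only, no low-count filter or one of 5 CPM in 3 libraries, a fit of the compared groups only, a replicate block, removal of a length trend, limma on log2 of TPM plus 1 or 0.1, and leaving libraries out. The test was checked on simulated data.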

Additional observations from a re-analysis of the deposited data

How the results depend on the processing

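The choice of the 9 used microplastics against control and taurine against microplastics, so the counts given next are no test of it. For microplastics against control, all 189 recomputed values of the 9 transcripts kept their sign and call. For taurine against microplastics 184 of 189 did, and the other 5 were all of GABRA4, whose call ended with no filter (3.68), without control 3 and taurine 3 (3.47), and without taurine 3 (3.48), microplastics 2 (3.34) or microplastics 3 (3.17). Reads limit the microplastics values of VEGFD, GABRA4 and PLAC1 most, with 6 reads in the lowest library.

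The sign of the difference of taurine from control turned for 5 transcripts, none of them called under any setting. For SMIM11 it was 0.041 by library size only, 0.21 with the length trend removed, 0.011 without control 3 and taurine 3, 0.020 on TPM plus 1 or 0.1, and -0.23 to 0.085 with 1 library left out. For DPP3 it was 0.0061 by library size only, 0.015 on TPM plus 1 or 0.1, and -0.18 to 0.18 with 1 library left out. For PDCD5 it was 0.15 with the length trend removed and -0.17 to 0.031 with 1 library left out. For VEGFD it was -0.065 without control 3 and taurine 3 and -0.089 to 0.19 with 1 library left out. For GABRA4 it was -1.36 to 0.37 with 1 library left out, positive without control 1. The cause was not tested.

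The number of genes called for microplastics against control, 3213 over all 9 libraries, was 4880 by library size only, 5110 without control 3 and taurine 3, and 1715 to 4151 with 1 library left out. For taurine against microplastics it was 1878, or 3080 by library size only (599 higher and 2481 lower, against 1333 and 545 with TMM), and 888 to 2146 with 1 library left out. For taurine against control it was 1, or 0 with the filter of 5 CPM, 5 by the Wald test of DESeq2, 0 with the fit of only the compared groups, 783 without control 3 and taurine 3, and 0 to 2 with 1 library left out. Of 228 recomputed list counts in each contrast, 59, 50 and 5 moved by over 1.5 times. The replicate block gave 2417, 1293 and 0 calls in these contrasts. Deviations of same-numbered libraries from their group means had correlations of -0.441 to 0.261. With 3 libraries in each group, these cannot show whether the numbers pair the samples.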
